A study of Homo sapiens with 6 samples.

Results

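The RNA of 40 genes that license, start and carry out DNA replication, or that control the step from G1 into S phase, was compared between DLD-1 cells given TGF-β with TFA and DLD-1 cells given TGF-β alone. The 40 genes were taken by name from the deposited table, where each name occurred once among 31016 genes. All 40 were expressed highly enough to be tested, among 18265 genes tested in all. DLD-1 is an established human colorectal adenocarcinoma cell line. TGF-β is a growth factor, and TFA is the total flavone extract of the plant Abelmoschus manihot. The first group held 3 libraries of cells given TGF-β (called TGF-β 1 to 3), and the second held 3 libraries of cells given TGF-β and TFA (called TGF-β + TFA 1 to 3). Every library therefore carried TGF-β, and what TGF-β itself does to these genes was not analysed here. The treatment labels give 24, 25 and 26 hours for libraries 1, 2 and 3 of both groups, whereas the series' design text names 24 hours. The sources used here give no dose and do not say whether the 3 libraries of a group came from separate cultures, so the p-values measure only the spread between these libraries. In bulk RNA, fewer cells of a type and less RNA per cell cannot be told apart, and RNA levels do not count the cells in S phase.

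Replication is prepared in G1, when the origin recognition complex, CDC6 and CDT1 load the ring-shaped MCM2-7 helicase onto DNA. At the start of S phase, MCM10, CDC45 and the GINS complex turn the loaded rings into active helicases. Polymerases then copy both strands, held to DNA by the sliding clamp PCNA, which the RFC complex loads. Cyclin D with CDK4 or CDK6 and cyclin E with CDK2 release E2F transcription factors from the retinoblastoma protein, and E2F raises transcription of many replication genes, E2F1 among them. TGF-β is known to hold many epithelial cells in G1 by way of CDK inhibitors.

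The E2F motif was counted in the members' promoters, which the choice of genes by name did not use. RefSeq promoters on GRCh38.p14, from 250 bases before to 50 bases after each gene's start, were matched by symbol for 34 of the 40 genes, all but MCM4, MCM5, GINS4, CCND1, CCNE2 and CDK2. An E2F motif in any of 4 forms, TTTCCCGC, TTTGGCGC, TTTCGCGC or TTTGCCGC, was searched on both strands. It was present in 18 of the 34 promoters (52.9%) and in 1164 of 35116 promoters of the same length (3.3%). The NF-Y motif CCAAT was in 20 of the 34 (58.8%) against 34.6% of all promoters, and the CHR motif TTTGAA was in 1 of the 34, that of RRM1 (2.9%), against 15.2%. The 35116 promoters were not limited to a single promoter per gene or to the tested genes, whereas the 34 were. A match describes letters and does not show that a factor bound. One stretch of 60 bases before the start is printed for genes of different roles, with every E2F match that lies whole within it in capitals.
MCM6 (chr2:135876496-135876555, minus strand): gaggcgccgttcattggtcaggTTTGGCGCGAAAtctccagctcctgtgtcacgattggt
CDT1 (chr16:88803728-88803787, plus strand): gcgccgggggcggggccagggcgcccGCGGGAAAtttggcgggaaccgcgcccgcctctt
GINS2 (chr16:85688955-85689014, minus strand): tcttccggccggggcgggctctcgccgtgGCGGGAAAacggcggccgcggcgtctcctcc
PCNA (chr20:5126648-5126707, minus strand): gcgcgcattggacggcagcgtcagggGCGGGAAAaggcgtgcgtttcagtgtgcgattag
POLA1 (chrX:24693755-24693814, plus strand): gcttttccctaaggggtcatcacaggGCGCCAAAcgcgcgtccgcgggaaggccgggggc
CDC25A (chr3:48188428-48188487, minus strand): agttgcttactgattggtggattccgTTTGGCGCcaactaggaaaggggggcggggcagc
E2F1 (chr20:33686386-33686445, minus strand): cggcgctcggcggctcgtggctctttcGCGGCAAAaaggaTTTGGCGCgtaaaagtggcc
Each is written 5′ to 3′ on the gene's own strand. In MCM6 the capitals hold overlapping matches, 1 on each strand, and E2F1, whose product binds this motif, holds 2 matches of which 1 lies on the other strand.

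No member passed the test for a change with TFA. With edgeR's quasi-likelihood test and Benjamini-Hochberg adjustment over all 18265 genes, 0 of the 40 were called at an adjusted p under 0.05, against 2 of all tested genes (0.0109%), both higher. Every member had an adjusted p of 0.9997 there. At an unadjusted p under 0.05 the count was also 0 of 40, against 1.83% of all tested genes (1.07% higher and 0.761% lower). DESeq2 called 0 of 40 as well, against 0.0702% of its genes. Fitted changes were small and spread around 0: 18 members lay above and 22 below, with a median log2 fold change of -0.005 and a range from -0.26 (CDT1) to 0.28 (ORC6). Over all tested genes the median was 0.011 and 51.9% lay above 0.

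The intervals give the size of change that these libraries allow. In all 40 members the 95% interval of the fold change lay within 2-fold in both directions, as it did in 11672 of 18265 tested genes. In 32 members it lay within 1.5-fold, the others being ORC6, CDT1, RFC1, RFC2, POLA1, POLE, CDK4 and CDK6. Leaving out 1 library left 37 to 40 members with an interval within 2-fold. Of genes at FPKM levels between those of the lowest and highest members, 9297 of 10054 had an interval within 2-fold and 5882 within 1.5-fold. FPKM is the deposited level, fragments scaled by transcript length and library size.

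**Figure D1:**
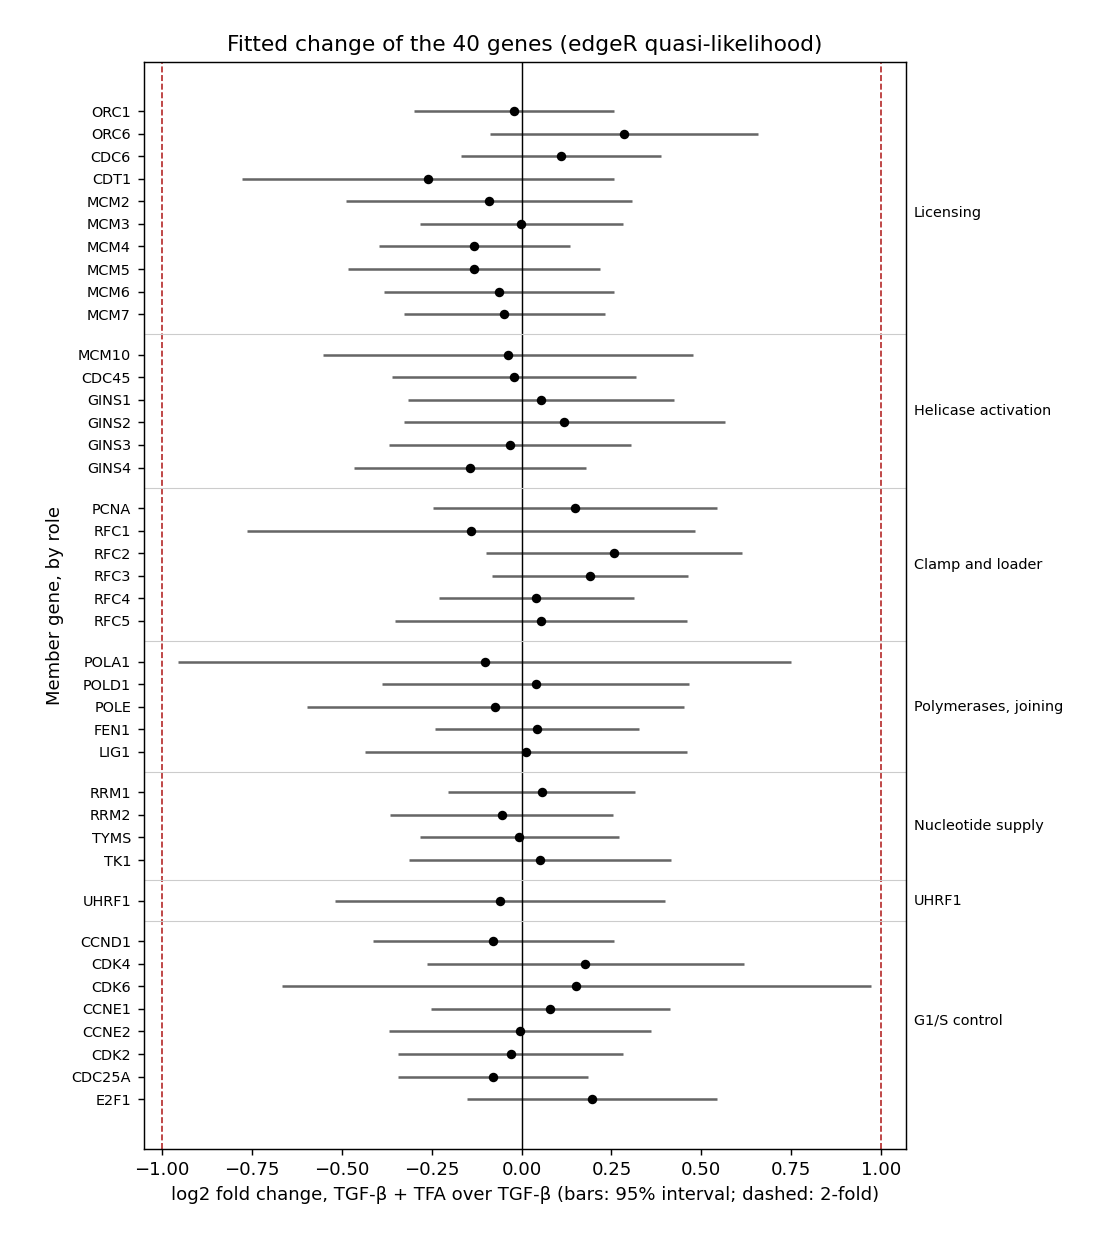
Fitted log2 fold change (dot) and 95% interval (bar) of each of the 40 genes, TGF-β with TFA over TGF-β alone, ordered by role; dashed lines mark a 2-fold change. Every bar crosses 0 and ends within the dashed lines, the widest being those of POLA1 and CDK6.

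Levels ranged from 1.12 FPKM for POLE to 342.6 FPKM for PCNA, as means of the 6 libraries. The median of the members was 16.8 FPKM against 1.60 FPKM for all tested genes, 39 of the 40 lay above the latter, and 27 reached 10 FPKM. Summed over the 40 genes, the level was 1392, 1453 and 1392 FPKM with TGF-β and 1448, 1449 and 1405 FPKM with TFA added. The sums of both groups thus overlapped. Levels of different genes are compared here on FPKM, the per-length scale. The length behind it was, in 37 of 40 members, within 10% of the summed exons of all transcripts in GENCODE 29, so genes with long rare exons are given too low a level. The other 3 lay outside in both directions. RRM2 had an effective length of 9138 bases, longer than its 5323 exon bases in GENCODE 29. CDT1 (2757 against 3336 bases) and FEN1 (2193 against 2478 bases) had shorter ones.

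**Figure D2:**
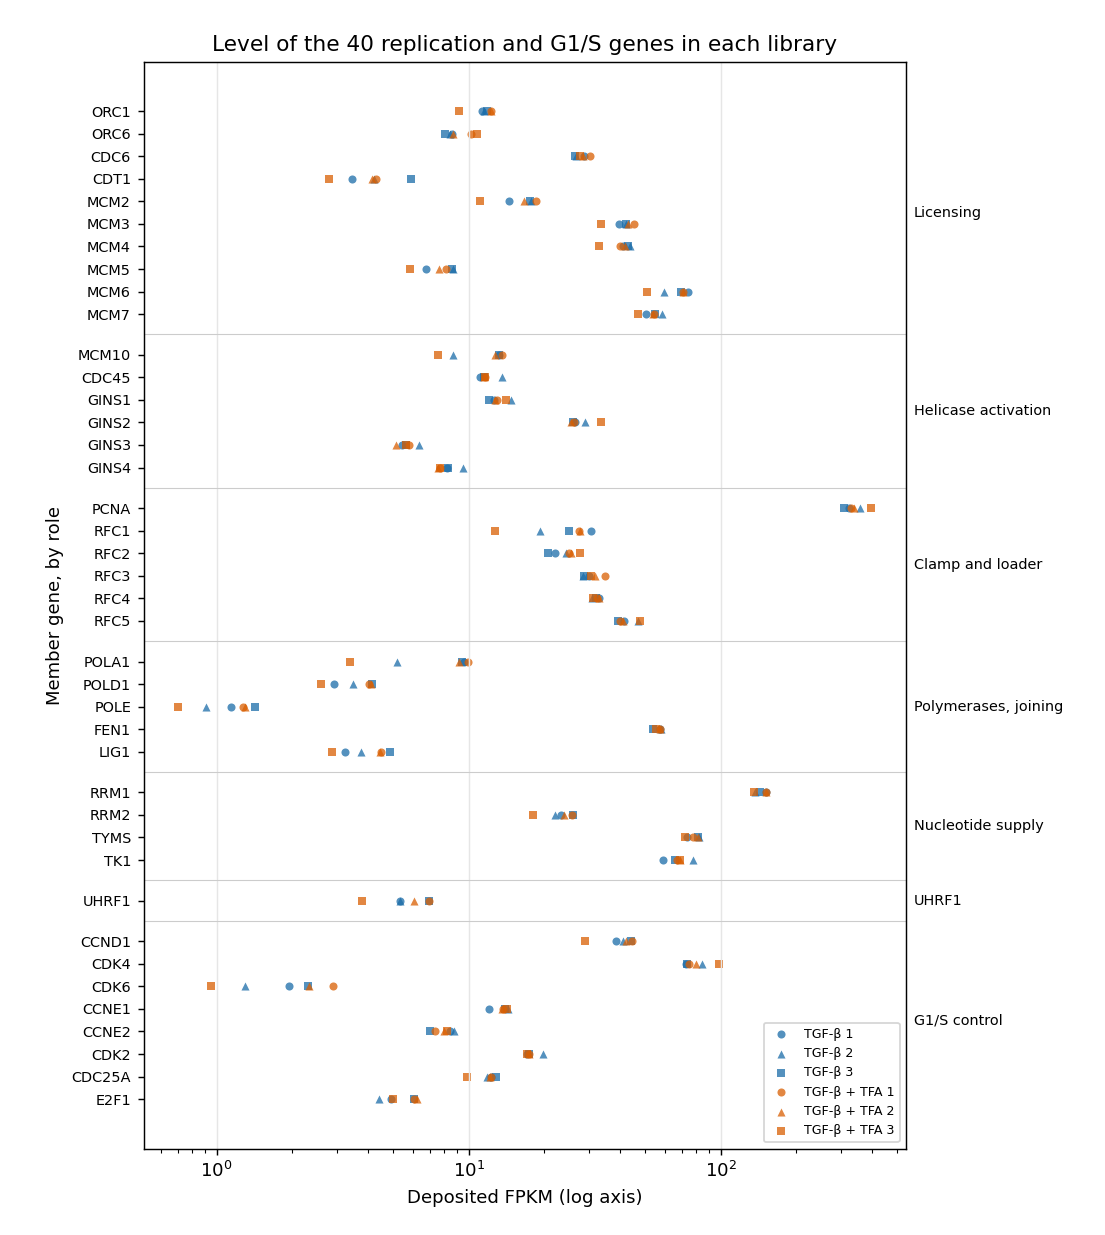
Deposited FPKM of each of the 40 genes (log axis) in every library, by role; blue is TGF-β, orange TGF-β with TFA, and the marker gives the library number. Points of both colours mix in most rows, and the orange squares, TGF-β + TFA 3, lie lowest for long genes such as POLA1, RFC1, POLE and CDK6.

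Among the 10 licensing genes, 2 were fitted above 0 and 8 below, with a median of -0.06, and none passed. ORC6, the smallest subunit of the origin recognition complex, had the lowest unadjusted p of all members (0.116). It stood at 8.59, 8.47 and 8.06 FPKM with TGF-β and at 10.2, 8.70 and 10.8 FPKM with TFA, a log2 fold change of 0.28 (SE 0.16; 95% interval -0.09 to 0.66). The TFA libraries lay above the others on this scale, but the groups overlapped in CPM, counts scaled to library size after TMM normalisation with no regard to length, where TGF-β + TFA 2 had 40.4 against 41.4 in TGF-β 2. ORC1, the large ATPase subunit that appears in G1, had 11.3, 11.6 and 11.8 FPKM against 12.2, 12.3 and 9.18 FPKM (-0.02, interval -0.30 to 0.26). CDC6, the ATPase that joins ORC at origins, had 28.6, 26.8 and 26.6 FPKM against 30.2, 28.4 and 27.8 FPKM (0.11, interval -0.17 to 0.39). Both groups overlapped in each. CDT1, which brings MCM2-7 to the origin, had the lowest fitted value of all members. Its levels were 3.46, 4.21 and 5.93 FPKM with TGF-β and 4.29, 4.12 and 2.79 FPKM with TFA (-0.26, SE 0.22, interval -0.78 to 0.26). TGF-β 3 held its highest value in FPKM and TGF-β + TFA 3 its lowest, followed by TGF-β 1. CDT1 (ENSG00000167513) lies on chromosome 16 from 88803789 to 88809258 on the plus strand (GRCh38).

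The 6 genes of the MCM2-7 ring were fitted between -0.13 and -0.0008, all on the lower side of 0, with no call, and of these only MCM4 and MCM5 kept that side under every alternative. MCM4 had fitted -0.13 (SE 0.11, interval -0.40 to 0.13). In CPM it stood at 316, 345 and 328 with TGF-β and at 301, 312 and 290 with TFA, so its groups did not overlap, by a gap of a few CPM between TGF-β 1 and TGF-β + TFA 2. In FPKM they did overlap. MCM2 had 14.4, 17.6 and 17.6 FPKM against 18.5, 16.6 and 11.1 FPKM (-0.09, interval -0.49 to 0.31). MCM5 had 6.76, 8.65 and 8.58 FPKM against 8.14, 7.60 and 5.85 FPKM (-0.13, interval -0.48 to 0.22). In both, TGF-β + TFA 3 was lowest and TGF-β 1 the lowest of its group. MCM7 had 50.8, 58.6 and 54.7 FPKM against 54.4, 54.1 and 47.2 FPKM (-0.05, interval -0.33 to 0.23). MCM3 (-0.0008) and MCM6 (-0.06) had intervals of -0.28 to 0.28 and -0.38 to 0.26.

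Although the ring holds its 6 proteins in equal number, their RNA levels in FPKM were unequal. These levels rest on effective lengths over all transcripts, 3637 bases for MCM3, 4125 for MCM6, 6959 for MCM4 and 7255 for MCM5. In CPM, MCM6 (265 to 339) also exceeded MCM5 (53.6 to 71.2), but MCM4 (290 to 345) exceeded MCM3 (154 to 178). The order that follows is that of FPKM. From the highest mean to the lowest the order was MCM6, MCM7, MCM3, MCM4, MCM2 and MCM5. MCM6 stood at 6.91 to 11.0 times MCM5 within a library. Of the 5 neighbouring steps of this order, all held in the 6 libraries except MCM3 above MCM4, which held in 3. The ranges of MCM6 and MCM7 over libraries overlapped (lowest MCM6 50.9 FPKM, highest MCM7 58.6 FPKM), as those of MCM3 and MCM4 did. MCM7 and MCM3 were set apart by less than 2 FPKM (47.2 against 45.2 FPKM).

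The 6 genes of helicase activation held 2 values above 0 and 4 below, with a median of -0.03 and no call. MCM10, which binds the loaded helicase, had 13.2, 8.68 and 13.2 FPKM with TGF-β and 13.6, 12.8 and 7.57 FPKM with TFA (-0.04, interval -0.55 to 0.48). One library in each group, TGF-β 2 and TGF-β + TFA 3, lay well below the other 4. CDC45, a helicase cofactor, had 11.1, 13.6 and 11.5 FPKM against 11.6, 11.5 and 11.7 FPKM (-0.02, interval -0.36 to 0.32), and TGF-β 2 alone stood above the rest. Of the 4 GINS subunits, GINS2 was highest and GINS3 lowest in every library, at a ratio of 4.53 to 5.98. GINS2 had 26.4, 29.1 and 25.9 FPKM against 26.3, 25.5 and 33.6 FPKM (0.12, interval -0.33 to 0.56), with TGF-β + TFA 3 highest. GINS1 had 12.6, 14.7 and 12.0 FPKM against 13.0, 12.7 and 14.0 FPKM (0.05, interval -0.32 to 0.42). GINS3 was fitted at -0.03 (interval -0.37 to 0.31). GINS4 was fitted at -0.14 (interval -0.47 to 0.18), with groups that did not overlap in FPKM (8.23, 9.49 and 8.32 against 7.69, 7.57 and 7.74) and did in CPM.

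In the clamp and its loader, 5 of 6 genes were fitted above 0, with a median of 0.10, and none passed. Of these, only RFC2 and RFC3 stayed above 0 under every alternative. PCNA, the ring that tethers polymerases to DNA, had 323.8, 358.5 and 307.9 FPKM with TGF-β and 330.5, 337.8 and 396.8 FPKM with TFA. Its log2 fold change was 0.15 (SE 0.17, interval -0.25 to 0.54), TGF-β + TFA 3 was highest, and the other TFA libraries lay among those with TGF-β. Only 102 of the tested genes had a higher mean FPKM than PCNA (ENSG00000132646, chromosome 20, 5114953 to 5126626, minus strand). RFC3, a small loader subunit, had 30.0, 28.4 and 28.6 FPKM against 34.8, 31.8 and 30.5 FPKM (0.19, SE 0.12, interval -0.08 to 0.46). It was the only member whose TFA libraries all lay above the TGF-β libraries in both FPKM and CPM. In CPM, 3 members had groups that did not overlap, RFC3 higher and MCM4 and CDC25A lower, against 7.91% of all tested genes (4.58% higher and 3.33% lower). For groups apart in FPKM, as in ORC6, GINS4, RFC2 and RFC3, the share of all tested genes was not counted. RFC2, another small subunit, had 22.1, 24.5 and 20.7 FPKM against 25.0, 25.6 and 27.7 FPKM (0.26, SE 0.15, interval -0.10 to 0.61), apart in FPKM but not in CPM. RFC4 had 33.0, 30.8 and 32.0 FPKM against 32.3, 33.0 and 31.0 FPKM (0.04, interval -0.23 to 0.31), and RFC5 was fitted at 0.05 (interval -0.35 to 0.46). RFC1, the large subunit, had 30.5, 19.1 and 25.1 FPKM against 27.3, 27.6 and 12.7 FPKM (-0.14, SE 0.27, interval -0.76 to 0.48). Its spread within each group exceeded the difference between the groups. RFC5 stood above RFC4, and RFC3 above RFC2, in all 6 libraries.

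The 5 genes of copying and joining were fitted between -0.10 and 0.04. POLA1, the catalytic subunit of the polymerase that starts each new strand, varied most between libraries, at 9.58, 5.19 and 9.38 FPKM with TGF-β and 9.95, 9.17 and 3.39 FPKM with TFA. It had an SE of 0.37 and the widest interval of all members (-0.96 to 0.75). TGF-β 2 and TGF-β + TFA 3 lay far below the other 4 libraries, which agreed closely. POLE, the catalytic subunit of the leading-strand polymerase, had 1.15, 0.91 and 1.42 FPKM against 1.27, 1.29 and 0.70 FPKM (-0.07, interval -0.60 to 0.45). POLD1, the catalytic subunit of polymerase delta, was fitted at 0.04 (interval -0.39 to 0.47). In FPKM, on effective lengths of 6629, 4938 and 16864 bases, the order POLA1, POLD1, POLE held in all 6 libraries. POLA1 was highest in CPM too. There POLE (15.04 to 26.2) stood above POLD1 (15.94 to 22.37) except in TGF-β 2 and TGF-β + TFA 3. FEN1, which trims flaps between Okazaki fragments, was the steadiest of this group with 57.4, 57.8 and 53.7 FPKM against 57.4, 57.5 and 55.3 FPKM (0.04, SE 0.12, interval -0.24 to 0.33). LIG1, the ligase that seals these fragments, was fitted at 0.01 (interval -0.43 to 0.46).

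For nucleotide supply the 4 fitted values lay between -0.06 and 0.06. RRM1, the large subunit of ribonucleotide reductase, had 151.9, 136.9 and 142.9 FPKM against 152.0, 152.0 and 135.4 FPKM. Its log2 fold change of 0.06 had the lowest SE of all members (0.112, interval -0.21 to 0.32). RRM2, the small subunit, had 23.2, 22.0 and 26.0 FPKM against 25.7, 23.9 and 17.96 FPKM (-0.06, interval -0.36 to 0.25), and RRM1 stood at 5.49 to 7.54 times RRM2, on the long effective length of RRM2. TYMS, thymidylate synthase and the target of fluorouracil, had 73.4, 81.8 and 81.5 FPKM against 77.8, 81.0 and 72.1 FPKM (-0.01, interval -0.28 to 0.27). TK1, the salvage kinase for thymidine, had 58.9, 77.9 and 66.1 FPKM against 67.2, 68.8 and 69.1 FPKM (0.05, interval -0.31 to 0.42), so that the TFA libraries lay within the range of the TGF-β libraries. UHRF1, which helps to copy DNA methylation onto new strands, had 5.37, 5.34 and 6.94 FPKM against 6.96, 6.06 and 3.78 FPKM (-0.06, interval -0.52 to 0.40).

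Among the 8 genes of G1/S control, 4 were fitted above 0 and 4 below, with a median of 0.04 and no call. CCND1, cyclin D1, had 38.6, 40.9 and 44.0 FPKM with TGF-β and 44.5, 42.2 and 28.99 FPKM with TFA (-0.08, interval -0.41 to 0.26). Its partner CDK4 had 73.1, 84.4 and 73.6 FPKM against 74.7, 79.8 and 98.4 FPKM (0.18, interval -0.26 to 0.62), and the related CDK6 had 1.94, 1.299 and 2.31 FPKM against 2.91, 2.32 and 0.95 FPKM (0.15, SE 0.35, interval -0.67 to 0.97). TGF-β + TFA 3 was the lowest library for CCND1 and CDK6 and the highest for CDK4. In FPKM, CDK4 stood at 25.7 to 104 times CDK6 within a library, the widest gap measured here between related members. Their effective lengths were 3087 and 12224 bases. CCNE1, cyclin E1, had 12.1, 14.3 and 13.9 FPKM against 13.7, 13.6 and 14.2 FPKM (0.08, interval -0.25 to 0.41). CCNE2, cyclin E2, had 8.44, 8.72 and 7.06 FPKM against 7.36, 7.97 and 8.19 FPKM (-0.0037, interval -0.37 to 0.36). In FPKM, on effective lengths of 2458 and 4392 bases, CCNE1 was above CCNE2 in all 6 libraries, by 1.43 to 1.97 times. In CPM, CCNE1 was above CCNE2 only in TGF-β 3 and TGF-β + TFA 1. Their CPM ranges overlapped (32.86 to 44.12 for CCNE1 and 34.09 to 45.45 for CCNE2), so their order depends on the length scale. CDK2, the kinase that cyclin E activates, had 17.0, 19.7 and 17.3 FPKM against 17.3, 17.3 and 17.1 FPKM (-0.03, interval -0.34 to 0.28). TGF-β 2 stood above the other CDK2 values, which lay close together.

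CDC25A, the phosphatase that removes inhibitory phosphates from CDK2, had 12.3, 11.8 and 12.9 FPKM against 12.3, 12.2 and 9.86 FPKM. Its fitted value was -0.08 (interval -0.34 to 0.18), and in CPM all TFA libraries lay just below the others (56.2, 55.4 and 58.6 against 55.2, 54.3 and 51.6). E2F1 had 4.93, 4.42 and 6.07 FPKM against 6.09, 6.24 and 5.01 FPKM (0.20, SE 0.15, interval -0.15 to 0.54), with groups that overlapped. Members with an E2F motif match were fitted above 0 in 7 of 18 cases (median -0.02, range -0.26 to 0.20), and those without one in 11 of 16 (median 0.05, range -0.14 to 0.28).

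The largest pattern among the members was between libraries and not between groups. TGF-β + TFA 3 held the highest or the lowest value, in CPM, of 30 of the 40 genes (75%), against 58.4% of all tested genes. The next library, TGF-β 3, did so for 17. Within TGF-β + TFA 3 the direction went with effective transcript length, the length that links deposited count and FPKM. Its 10 longest members (5440 bases and more) lay at a median of -0.33 from their mean over the 6 libraries (log2 CPM), and its 10 shortest (2976 bases and less) at 0.16. POLA1 lay at -0.93, CDK6 at -0.78, RFC1 at -0.68, and POLE, with the longest effective length (16864 bases), at -0.46. PCNA, with the shortest (1400 bases), lay at 0.38. In 8 of the 10 longest members TGF-β + TFA 3 was the lowest library.

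The gap between long and short members was -0.49 in TGF-β + TFA 3 and -0.23 in TGF-β 2, and from 0.16 to 0.25 in the other 4. All tested genes showed the same order: the longest 10% lay at -0.34 and the shortest 10% at 0.36 in TGF-β + TFA 3. GC content moved with the libraries as well. The 10 members of highest GC content (55.6% and more) lay 0.35 below the 10 of lowest in TGF-β + TFA 3, and 0.22 below them in TGF-β 1, while in TGF-β 3 they lay 0.23 above. What set these libraries apart was not tested. The median of all members was near 0 in every library, from -0.072 in TGF-β 1 to 0.055 in TGF-β + TFA 3.

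**Figure D3:**
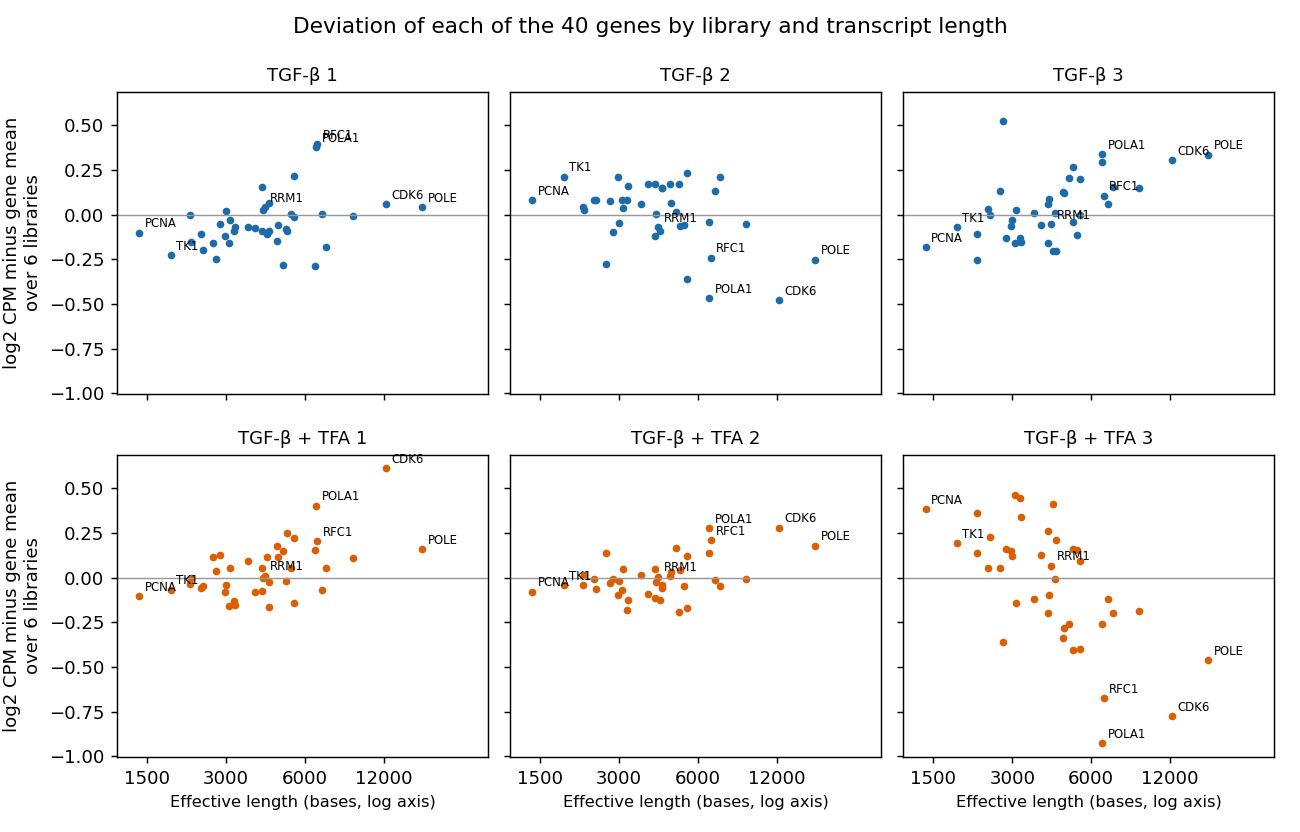
Deviation of each of the 40 genes from its own mean over the 6 libraries (log2 CPM) against effective transcript length (log axis), 1 panel per library. In TGF-β + TFA 3 the points fall from PCNA at 0.38 to POLA1 at -0.93, in TGF-β 2 they fall less, and in the other 4 panels the 10 longest members have a median above 0.

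Directions of single members changed most often when TGF-β + TFA 3 was left out. Leaving out another single library changed the sign of 5 to 9 members. With all libraries the 10 longest members had a median log2 fold change of -0.09 and the 10 shortest of 0.07. Without TGF-β + TFA 3 these were 0.10 and -0.02, and 20 of the 40 fitted values changed sign, none of them called. CDK6 then had the highest value (0.46) and GINS4 the lowest (-0.23). The median of all 40 was 0.001 without TGF-β + TFA 3, and no member was called. Across the reported fit and 19 alternatives, 11 members kept 1 sign wherever they were tested. ORC6, CDC6, RFC2, RFC3, RRM1 and E2F1 stayed above 0, and CDT1, MCM4, MCM5, GINS4 and CDC25A stayed below. The alternatives refit the same libraries or part of them, so a kept sign adds no independent evidence. In the reported fit the intervals of all 40 members held 0. The share of all tested genes that kept 1 sign was not counted.

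Other genes of the same processes were counted in 5 lists. Of 40 other replication factors, none was called, 27 were fitted above 0, and the median was 0.03. DSCC1, part of an alternative clamp loader, had the lowest unadjusted p there (0.0289), with 23.65, 20.8 and 22.8 FPKM against 27.35, 28.7 and 26.0 FPKM (0.32, SE 0.12, interval 0.04 to 0.60). The groups of DSCC1 did not overlap, and its adjusted p was 0.9997 by edgeR. The most abundant of the list were TOP2A, the topoisomerase that untangles replicated DNA (-0.12, interval -1.01 to 0.77), and RPA2, a subunit of the single-strand binding protein (0.03, interval -0.32 to 0.37). TOP2A had 45.4 FPKM in TGF-β + TFA 3 and 95.0 to 156 FPKM elsewhere.

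None of 15 other nucleotide synthesis genes was called (10 fitted above 0, median 0.06). IMPDH2 (0.01, interval -0.46 to 0.47) and NME1 (0.29, interval -0.38 to 0.95) were the most abundant. Of 19 other RB, E2F and G1 cyclin genes, none was called (9 above 0, median -0.03). CCNA2, cyclin A2, had 0.14 (interval -0.14 to 0.42), TFDP1, the partner of E2F, had -0.08, and CCND2, at 0.09 and 0.22 FPKM in the 2 groups, had 1.26 (interval -0.63 to 3.15). Of 8 genes named as CDK inhibitors none was called, 7 were fitted above 0, and the median was 0.16. These figures include CDKN2A and CDKN2B, at a trace level with means of 0.07 and 0.21 FPKM over the 6 libraries. Among the 8, CDKN3 had 0.30 (interval -0.21 to 0.80), CDKN1B, the p27 gene, had 0.04 (interval -0.22 to 0.30) and CDKN2C had 0.27 (interval -0.13 to 0.67). In 30 G2/M genes there were no calls, 14 values above 0 and a median of -0.006, with CCNB1 at 0.15, PTTG1 at 0.31 and CENPA at 0.23 (interval -0.08 to 0.54).

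**Figure D4:**
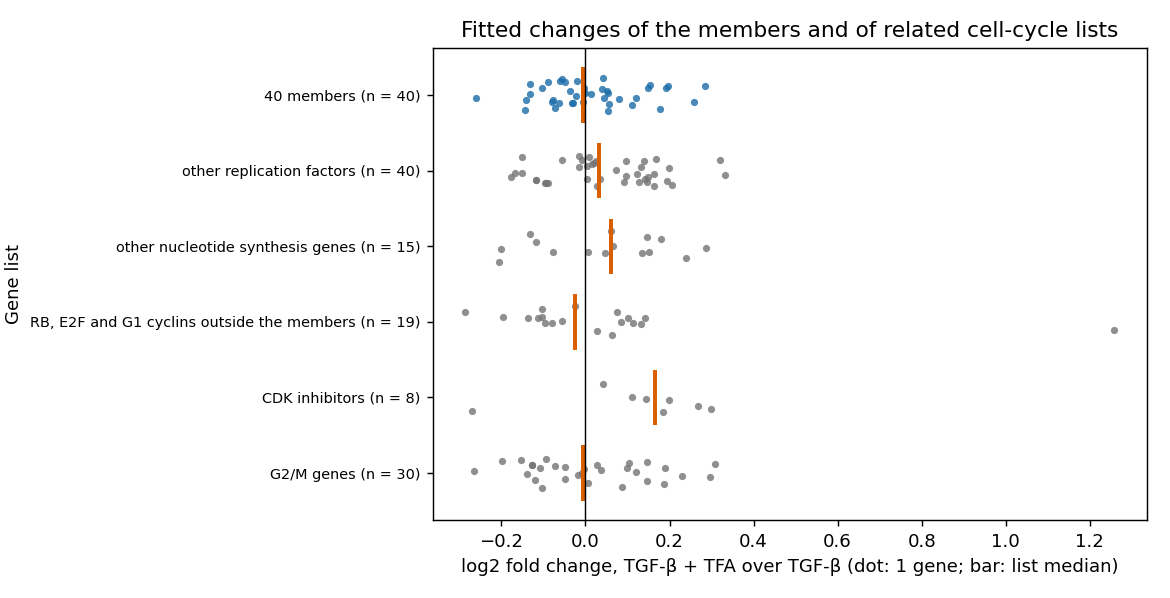
Fitted log2 fold change of each gene (dot) in the 40 members and in 5 related lists, with the list median as a bar. Medians lie between -0.03 and 0.16, and the dot at 1.26 is CCND2, a gene at a trace level.

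Some members share exons with a gene on the other strand. The libraries kept strand, per the labels' protocols, but no source used here says whether the counting used it. CCNE2 shares 37.0% of its exon bases with INTS8, which had a mean of 7757 estimated counts against 2500 for CCNE2, so the level of CCNE2 is uncertain. CDK4 shares 43.2% with TSPAN31 (548 counts against 17754) and TYMS 39.1% with ENOSF1 (2370 against 13443). On the same strand only FEN1 shared exon bases in GENCODE 29, 49 with FADS2. All these overlaps were read from GENCODE 29, where only 10 members had the same gene position as in the deposited table. Overlaps in the gene models behind the deposited counts were not tested. This includes RRM2, whose effective length exceeded its exon bases in GENCODE 29.

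Total estimated counts ran from 60361756 to 68745953 per library, and 23096 to 24159 genes were above 0. The labels name an epithelial line, and all 10 epithelial markers were expressed highly enough to be tested. They ranged from VIL1, at 0.26 and 0.17 FPKM in the 2 groups, to KRT18, at 770.1 and 680.1 FPKM. Their summed level was 1437 to 1707 FPKM with TGF-β and 1345 to 1500 FPKM with TFA. Fibroblast markers were at a trace level and highest in TGF-β + TFA 2 and 3. Their 10 genes summed to 0.06, 0.31 and 0.37 FPKM with TGF-β and to 0.45, 1.97 and 2.37 FPKM with TFA. Of these, 6 were expressed highly enough to be tested by edgeR, which called none and gave 3 an unadjusted p under 0.05, all higher. DESeq2 called 1 of them, COL6A3, at a log2 fold change of 3.58 (adjusted p = 0.03427). COL3A1, DCN, LUM and POSTN were listed at 0 in all 3 TGF-β libraries and in TGF-β + TFA 1. Endothelial markers (8 genes) summed to 1.55 to 1.99 against 2.04 to 2.38 FPKM, CDH5 being listed at 0 in 5 libraries, and the haematopoietic markers found in the table to 0.48 to 0.65 against 0.46 to 0.96 FPKM. In CPM the groups did not overlap, all higher with TFA, in 2 of 6 tested fibroblast markers and 3 of 6 tested endothelial markers. Of all tested genes, 4.58% were apart in that direction. The part of these marker genes in the values of the members was not tested.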

How the data were processed

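Poly(A) RNA of DLD-1 cells was sequenced in 6 libraries, 3 per group. Per the submitters' processing notes, the genome was GRCh38 and the tools were StringTie 1.3.4d, HISAT2 2.0.4 and cutadapt 1.9, whose roles are not stated. The authors deposited 1 table with FPKM and estimated counts per gene and library. These estimated counts are whole numbers that may come from coverage: a value of 4 was more frequent than 3 or 5 in every library (1032 to 1271 genes against 601 to 685 and 345 to 396), so totals may overstate fragments. The labels' protocols name molecular identifiers, and no source used here says whether they were counted.

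The estimated counts, rounded, were tested with edgeR 4.0.16 (R 4.3.3): filterByExpr, TMM, quasi-likelihood fit on group alone, 2-sided test, Benjamini-Hochberg adjustment over all tested genes, calls at an adjusted p under 0.05. SE is the log2 fold change divided by the root of F, and intervals are 95%. DESeq2 1.42.0, limma 3.58.1 (limma-trend) on log2(FPKM + 0.5, 0.1 or 1) of the deposited FPKM (genes with a mean of at least 1), other filters and scalings, length offsets and leaving out libraries were alternatives. Deviations are log2 CPM (prior count 2) minus the gene's mean. Effective length is count over FPKM, set to bases on single-exon genes of GENCODE 29, from which GC content and exon overlaps also came. Positions of genes are the table's.

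The members and lists were chosen with earlier results of these data known. All members were named. Library values were printed for a fixed set, for the 5 lowest unadjusted p in each direction and for groups that do not overlap. From each related list, the 2 genes of highest FPKM and the 1 of lowest p were named, except 1 gene that is not reported here. Other genes and the examples of printed promoters were chosen after their values were seen. Protein comparisons that were planned were not run. The fits were tested on simulated data.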

Additional observations from a re-analysis of the deposited data

How the results depend on the processing

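No member was called under any of the 19 alternatives, and the lowest unadjusted p of a member in them was 0.0389, for RFC2 at a log2 fold change of 0.24 with offsets for length and GC content, an alternative chosen after seeing the data. The median log2 fold change of the members stayed between -0.037 and 0.031 in all of them. Without 1 library it ran from -0.035 to 0.031. The count of genes called among all tested, 2, was 15 with the DESeq2 Wald test, 1 with the replicate block, 1 with length offsets and the replicate block, and 1 to 3 without 1 library (1 without TGF-β 2, TGF-β + TFA 1 or TGF-β + TFA 2, and 3 without TGF-β + TFA 3). Of 755 values of single members under alternatives, 747 moved by less than 1 SD between libraries. The other 8 (CDC45, GINS2, GINS4, TYMS, TK1, CDK4, CCNE1 and CDK2) moved downward, to between -0.287 and -0.0972, with TGF-β 1 and TGF-β + TFA 3 both left out, and the cause was not tested. Over genes, same-numbered libraries did not deviate together (correlations of 0.04, -0.12 and -0.13). Over the members the correlations were 0.264, -0.806 and -0.798. TGF-β 2 and TGF-β + TFA 3, of different number, both had long members below short ones, so these correlations cannot decide pairing. The reported fit did not take the numbers as pairs, and the replicate block was an alternative. With the block 38 members had an interval within 2-fold. A mean FPKM of at least 5 left 35 members to test, without CDT1, POLD1, POLE, LIG1 and CDK6. With 3 libraries a group, a member without a call is limited only by its printed interval and is not shown to be unchanged.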
